A study of Canis lupus familiaris with 81 samples.

Results

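Under the scaling used, the 100 probes described here varied least among those of at least median level in canine osteosarcoma and 3 control tissues. They were chosen from 2010 probes by 2 measured values. The mean log2 CPM (counts scaled to library size, on a log2 scale, with TMM scaling and a prior count of 2) over 80 tissue regions had to be at or above the median of all probe means, which left 1005 probes. The 100 of those with the lowest SD over the 80 regions were the members, and the other 905 are the set they are compared with. Level and SD therefore chose the members, and every difference between groups of these regions enters the same SD, so the values below describe the members and test nothing about them unless a selection on other regions is named.

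Osteosarcoma is a cancer of bone-forming cells; in the appendicular form it arises in the bones of the legs. RNA was measured with the GeoMx Digital Spatial Profiler, in which tagged probes are hybridised to a tissue section, the tags of a chosen region are released by light, and the released tags are sequenced. The groups were 68 osteosarcoma regions from 24 tumours of pet dogs in a clinical trial, and 4 regions each of kidney, spleen and liver, all on 2 tissue microarrays (slides that hold small pieces of many specimens). Each array held 2 regions of 10 tumours and 1 region of the other 14. Total counts ran from 17711 to 1069118 in tumour regions (median 211967), with medians of 155685 in liver, 191424 in kidney and 197740 in spleen. A no-template control held 74 counts on 38 probes and none on a member. Age, sex, breed, treatment and outcome of each dog, the dogs behind the control regions and the way regions were placed are not given in the labels used here, so p-values measure only the spread between these samples.

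The files name probes by identifier and do not pair them with genes. None of the 2010 identifiers matched the dog gene table used, so no gene name, sequence or function is given for any probe, and the labelled tissues could not be checked against marker genes. Steadily expressed genes, often called reference or housekeeping genes, encode parts that most cells need at all times, such as ribosomal proteins, cytoskeleton and enzymes of central metabolism. They are used to put samples of different quality on 1 scale. In a hybridisation assay a probe also collects signal that does not depend on its target, so a probe can give a steady reading with much or with little target RNA. In a region of bulk tissue, fewer cells of a type and less RNA per cell cannot be told apart.

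The members lay at the low end of the probes they were drawn from. Their mean levels ran from 7.14 to 9.08 log2 CPM with a median of 7.51, against a median of 8.04 among the other 905 probes. With the 1005 probes split by level into 4 equal parts, 52 members were in the lowest part, 34 in the next, 12 in the one above and 2 in the highest. Across the 1005 probes, level and SD had a Spearman correlation of 0.506, so the low levels of the members go with the rule; the probes share libraries and are not independent. Member SDs ran from 0.286 to 0.457 with a median of 0.420, against a median of 0.722 among the others. The biological coefficient of variation fitted by edgeR, which allows for counting error, had a median of 24.4% in members and 47.6% in the others.

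**Figure D1:**
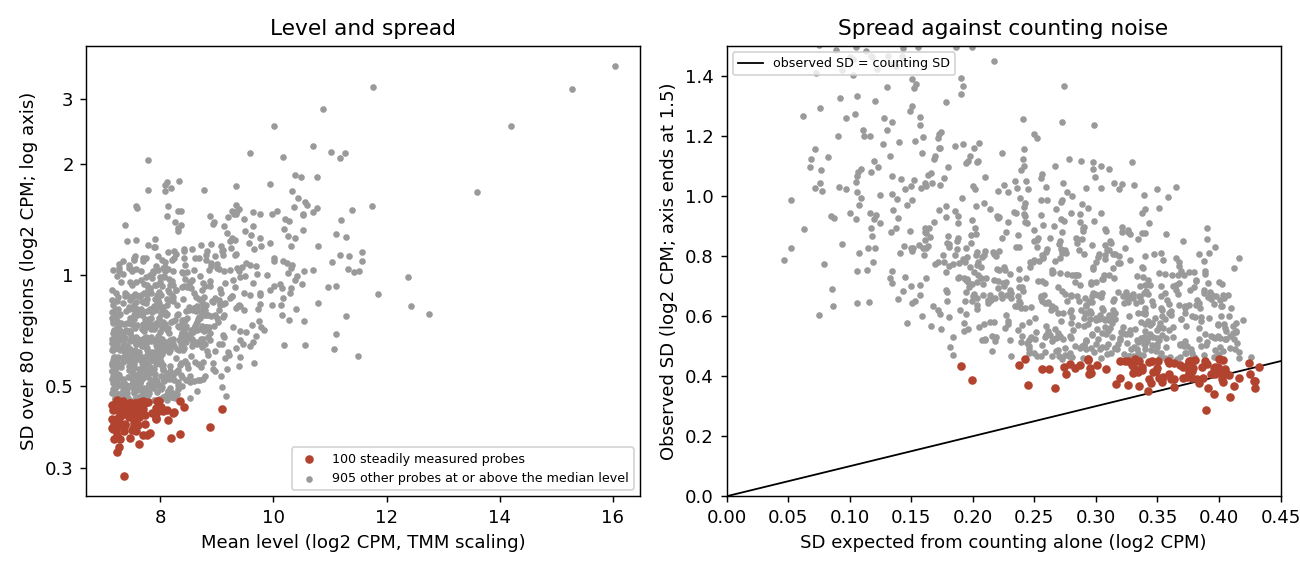
Left, mean level (log2 CPM) and SD over 80 regions on a log axis for the 100 members (red) and the 905 other probes (grey). Right, the observed SD against the SD that counting alone would give, with the line of equality; the right vertical axis ends at 1.5, so other probes above it are not drawn. The members form the lower edge on the left, and on the right most lie near the line, 16 of them with less variance than counting would give.

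The limit of 100 falls in a dense part of the distribution. The last 3 members inside were RTS0113151 with an SD of 0.456, RTS0112730 with 0.457 and RTS0112012 with 0.457. The first 3 probes outside were RTS0113461 with 0.458, RTS0112665 with 0.459 and RTS0112019 with 0.459. The limit therefore marks no gap between kinds of probe.

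The members' counts were low and never 0. The median member had a median of 32 counts per region, and the lowest count of a member in any region was between 1 and 6. None of the 8000 member values was 0. At such counts sampling alone spreads the log2 values, so the SD of each probe was set beside the SD that a Poisson count of constant share would have in the same 80 libraries. The counting SD had a median of 0.359 in members, and the ratio of observed to counting variance had a median of 1.35, against 7.57 in the other probes. In 84 of 100 members and in 59 of the 905 others the observed variance was less than 2 times the counting variance. In 61 members it was less than 1.5 times, and in 16 it was below the counting variance itself. Counting made up a median of 74.2% of the members' variance and 13.2% of the others'.

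The spread above counting differed with depth. In the 17 deepest tumour regions, with at least 355723 counts, members had a median of 77 counts and a median SD of 0.331, against 0.180 from counting. There the median variance ratio was 3.63, and 17 members lay under 2. In the 17 shallowest tumour regions, with at most 75731 counts, the median count was 10 and the SD 0.514, against 0.495 from counting. The ratio was 1.20 there and 98 members lay under 2. Differences between shallow regions smaller than counting error were therefore not detectable at this depth, and the members were not free of further variation where depth allowed it to be measured.

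RTS0112919 had the lowest SD of all 1005 probes. Its tumour means ran from 6.97 in tumour 1002 through a median of 7.35 to 7.81 in tumour 214. Its 4 kidney regions had 6.97, 7.29, 7.04 and 7.18, its spleen regions 7.58, 7.46, 7.62 and 7.34, and its liver regions 7.43, 7.45, 7.59 and 7.50 log2 CPM. All 12 control regions lay within the range of the tumours, which overlapped each tissue. The SD over 80 regions was 0.286 at a counting SD of 0.390, a variance ratio of 0.538 and the lowest among members. Its rank moved to 60 with upper quartile scaling and to 139 with library size alone.

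RTS0113008, the member of the second lowest SD (0.332), was lowest in tumour 214 at 6.68 and highest in tumour 404 at 7.74, with a tumour median of 7.22. It had 6.84, 7.37, 6.92 and 7.30 in kidney, 7.24, 7.20, 7.17 and 7.27 in spleen, and 7.04, 7.22, 7.02 and 7.36 in liver. Groups made up 1.03% of its variance, and every control region lay inside the tumour range. The next were RTS0112631 with an SD of 0.342, RTS0113343 with 0.349 and RTS0113432 with 0.359. Counting SDs of these 3 were 0.396, 0.343 and 0.429, so their spread was below or close to that of counting. RTS0113432 had a variance ratio of 0.699, the third lowest.

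The 3 members of highest level stood furthest above counting noise, apart from 1 exchange. RTS0112473 had the highest level (9.08) and the highest variance ratio (5.18). RTS0112925 followed with a level of 8.88 and a ratio of 3.76. RTS0113599 was the third by level (8.41) with a ratio of 3.40, while RTS0112730 at 8.35 had the third highest ratio, 3.55. The 3 members of lowest level, RTS0111931, RTS0112847 and RTS0112330, had 7.14 to 7.15 log2 CPM and ratios of 0.805, 1.09 and 0.917. Of these members the high ones exceeded counting noise and the low ones lay close to it. The rule sets this limit, since no member SD was above 0.457. Counting SDs were 0.424 to 0.428 in the 3 low members and 0.191 in RTS0112473, so only a high member could reach a high ratio.

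RTS0112473 was also the member with the largest part of its variance between groups, 40.5%. Its tumour means ran from 8.68 in tumour 309 through a median of 9.13 to 9.73 in tumour 204. It had 8.60, 8.40, 8.73 and 8.38 in kidney, 8.34, 8.66, 8.66 and 8.67 in spleen, and 8.32, 8.21, 7.97 and 8.40 in liver. All 24 tumours lay above every spleen and every liver region, and the tumour range overlapped kidney in 1 region. The log2 fold change of tumours was 1.00 ± 0.48 (SE) over liver, 0.71 ± 0.46 over kidney and 0.68 ± 0.46 over spleen. With edgeR's quasi-likelihood test the adjusted p was 0.193, 0.517 and 0.567, so none passed the threshold of 0.05. It passed over liver with DESeq2's Wald test, at 1.09, and with library size alone the sign over kidney and over spleen turned.

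RTS0112925 behaved otherwise. Its tumour means ran from 8.33 in tumour 501 through 8.91 to 9.49 in tumour 1701. It had 9.23, 8.67, 9.06 and 9.03 in kidney, 8.14, 8.59, 8.69 and 8.68 in spleen, and 8.15, 8.41, 8.39 and 8.40 in liver. Kidney lay in the middle of the tumours, while spleen and liver regions were at or below their lower part. Differences among tumours took 60.5% of its variance. With upper quartile scaling this probe had the lowest SD of all, 0.297, although it was at rank 20 with TMM.

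Residual differences between tumours and control tissues were small in members. The range of the 4 group means had a median of 0.49 log2 units in members and 1.21 in the others. It was under 0.5 in 51 members and over 1 in 2, while 563 of the 905 others exceeded 1. Differences between the groups made up a median of 7.58% of a member's variance and 18.2% of another probe's, and differences between tumours 48.6% and 56.6%. These shares, and those of single probes above, are not adjusted for the number of groups or tumours. Noise alone would give a part of each. The tumours had the highest of the 4 means in 39 members, kidney in 35, spleen in 19 and liver in 7. Liver had the lowest in 48 members, kidney in 26, spleen in 20 and the tumours in 6.

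No member passed an adjusted p of 0.05 between tumours and any tissue in edgeR's quasi-likelihood test, in which the regions of a tumour and of a tissue were summed. Over all 2010 probes, 4.93% were called lower and 0.199% higher in tumours than in kidney; for spleen the shares were 2.39% lower and 0% higher, and for liver 4.43% lower and 0.597% higher. At an unadjusted p under 0.05 in the edgeR test, 3 members were lower and 0 higher in tumours than in kidney, 1 lower and 4 higher than in liver, and 0 in either direction for spleen. The share of all probes at that unadjusted threshold was not counted, so these counts have no background to be read against. DESeq2's Wald test called 0 members against kidney and spleen, and 1 higher and 0 lower in tumours than in liver. Of all 2010 probes it called 72 higher and 97 lower in tumours than in kidney. The counts were 32 and 49 for spleen, and 132 and 112 for liver. Because a called difference raises the SD, the rule itself keeps such probes out, and nothing is read from these counts. Each tissue entered as 1 sample that was assumed to vary as the tumours do.

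The median log2 fold change of members was 0.10 over kidney, 0.18 over spleen and 0.33 over liver, against 0.59, 0.64 and 0.90 among the other 905 probes. Over all 2010 probes these medians were 0.01, 0.02 and 0.03. Members and others both passed a level floor set on the mean over all regions, most of them tumour. That floor favours probes high in tumours, and the limit on SD keeps the members' differences small. What part each has in the contrast was not tested, so it is not read as a property of the members. Groups that did not overlap were rare in members. All 24 tumours were above all 4 regions in 0 members for kidney, 1 for spleen and 1 for liver, where 5.37%, 4.08% and 8.56% of all probes were so. All 24 tumours were below all 4 regions in 2 members for kidney and in 0 for spleen and liver, where the shares of all probes were 5.82%, 3.48% and 4.08%. The rule used these regions too, so the counts are description.

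The members furthest from equality between tumours and kidney were RTS0113720 and RTS0112473 on the high side and RTS0111983 and RTS0112203 on the low side. RTS0113720 had tumour means from 7.01 through 8.12 to 8.45, against 7.26, 7.33, 7.40 and 7.30 in kidney, which lay in the lower part of the tumour range. Its log2 fold change was 0.73 ± 0.44 (SE; edgeR adjusted p = 0.493). RTS0111983 had tumour means from 6.83 through 7.60 to 8.10, against 8.32, 8.27, 8.49 and 8.45 in kidney, so that the groups did not overlap. Its log2 fold change was -0.84 ± 0.31 with an edgeR adjusted p of 0.163, and it passed with upper quartile scaling, at -1.20; over spleen it was -0.26 ± 0.34. RTS0112203 had tumour means up to 8.10 and a kidney mean of 8.26 ± 0.156 (SD, n = 4), with a log2 fold change of -0.67 ± 0.31 (edgeR adjusted p = 0.320).

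RTS0112646 was the member furthest below in tumours relative to spleen and to liver. Tumour means ran from 6.79 through 7.28 to 7.92, against 7.85, 8.02, 7.76 and 8.10 in spleen and 7.81, 8.18, 8.14 and 8.12 in liver. Kidney had 7.09, 6.64, 7.23 and 7.18 and lay within or just below the tumours. The log2 fold change was -0.62 ± 0.32 over spleen and -0.73 ± 0.32 over liver, with edgeR adjusted p of 0.489 and 0.163, and with upper quartile scaling the difference from liver passed, at -1.39. The next on that side were RTS0113139 for spleen, at -0.45 ± 0.35, and RTS0112330 for liver, at -0.30 ± 0.25. On the other side RTS0113087 stood at 0.71 ± 0.46 over spleen, where its sign turned with library size alone, and RTS0113886 at 1.00 ± 0.48 over liver. RTS0113886 had tumour means from 7.55 through 8.33 to 9.03, against 7.35, 7.30, 7.18 and 7.77 in liver, and 1 liver region reached into the tumour range. With TMM none of these passed the threshold in edgeR.

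**Figure D2:**
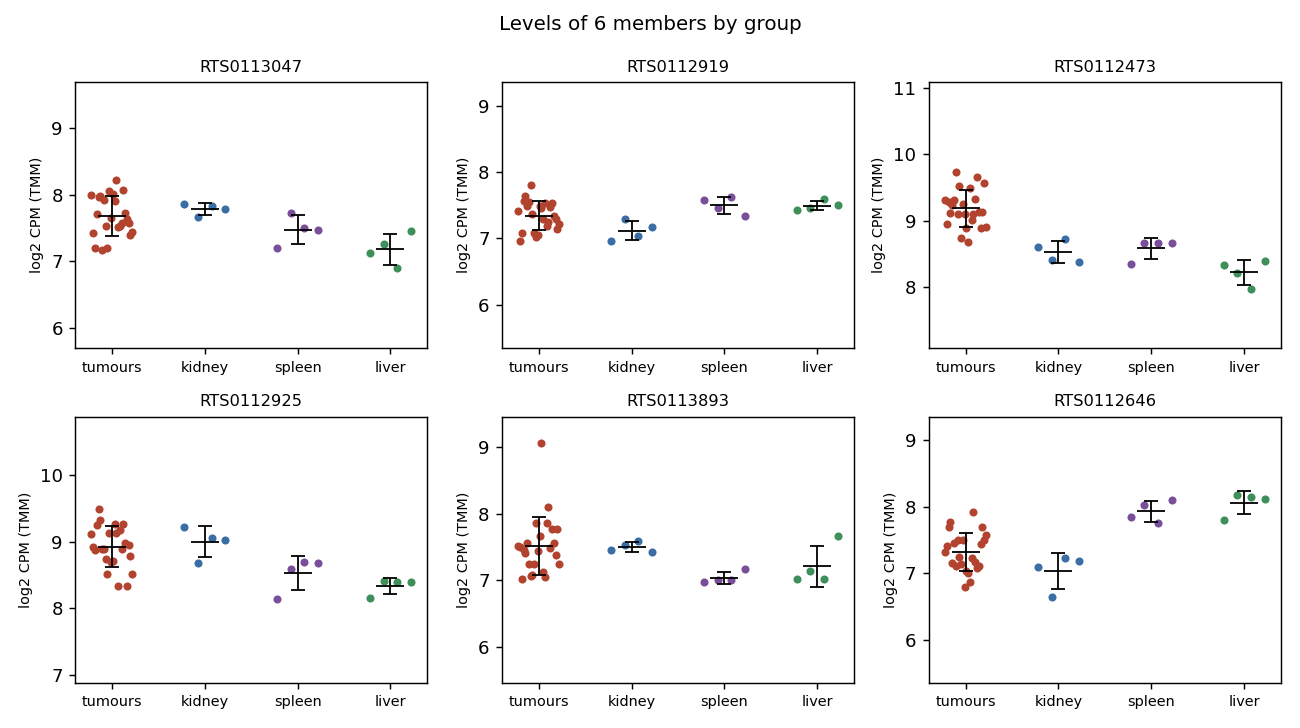
Level (log2 CPM, TMM) of 6 members, as tumour means (24 points) and as single regions of kidney, spleen and liver (4 points each), with the mean and SD in black; each vertical axis spans 4 log2 units. RTS0113047 and RTS0112919 overlap between tumours and all tissues, RTS0112473 is higher in all tumours than in every spleen and liver region, and 1 tumour stands apart in RTS0113893.

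Steady over 80 regions did not mean equal among tumours. The range over the 24 tumour means had a median of 1.27 log2 units in members, a 2.41-fold difference between the highest and the lowest tumour, against 5.26-fold in the others. In the F test of edgeR over the 68 tumour regions, 84 of 100 members and 897 of 905 others differed among tumours, where 86.5% of all 2010 probes did. The members' share lies near that of all probes, and the rule used the regions, so the count marks nothing about them. In 14 tumours the only spread within a tumour is that between the 2 arrays. With the 10 tumours that have 2 regions on an array, 11 members passed on array 1 alone, where 728 of 2010 probes did. On array 2 alone 3 members passed, where 631 of 1929 tested probes did. Both member counts are below those shares, and the rule used these regions, so they are description.

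RTS0113893 had the smallest p among tumours (edgeR adjusted p = 9.62e-09). Tumour 309 stood at 9.06, with 8.80 on array 1 and 9.33 on array 2 from 55 and 64 counts, and the next tumours were 601 at 8.09 and 2203 at 7.86. The median tumour was at 7.47. Kidney had 7.45, 7.53, 7.59 and 7.42, spleen 6.97, 7.00, 7.00 and 7.16, and liver 7.02, 7.14, 7.02 and 7.66. A single tumour thus stood above every other tumour and every control region, for a probe whose SD over the 80 regions was 0.438. RTS0112730 came second (adjusted p = 3.29e-08), with tumours from 7.48 in tumour 901 to 9.10 in tumour 1405. On single arrays neither passed, with edgeR adjusted p of 0.590 on array 1 and 0.193 on array 2 for RTS0113893, and 0.350 and 0.511 for RTS0112730. These fits hold 10 tumours. Tumours 309, 901 and 1405, with 1 region on each array, are not among them, so the extreme tumours named for both probes are missing there. Under the other alternatives run both passed.

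Pairs of members were less correlated than pairs of the other probes. The median Pearson correlation between pairs of members over the regions was 0.075, against 0.152 between pairs of the other probes. Counting error is separate for each probe and weakens such correlations. It made up a median of 74.2% of the members' variance and 13.2% of the others'. Its part in the difference was not tested, and the pairs share libraries, so this is a description.

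Between arrays, 5 members were called higher and 0 lower on array 2 than on array 1 by edgeR with the tumour as a block, where 7.67% and 1.1% of all probes were. They were RTS0112107, RTS0112759, RTS0113228, RTS0113083 and RTS0112039, named after their values were seen. Their log2 fold changes ran from 0.19 to 0.29, and the median of all members was 0.07. The direction depended on the scaling: under upper quartile scaling 0 members were called higher and 2 lower on array 2, among 37 probes higher and 54 lower, and by library size 0 higher and 2 lower, among 19 and 76. With TMM 154 probes were higher and 22 lower. DESeq2's Wald test called 3 members higher and 1 lower, among 189 and 12 of the 763 probes for which it gave an adjusted p. Without the block 0 members passed in edgeR, where 1 of 2008 tested probes was higher and 0 lower.

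Selections on part of the regions gave values that the choice had not used. The 100 probes chosen by the same rule on array 1 alone had a median SD of 0.490 on array 2, where the other probes at or above the median level had 0.755. Of these 100, 47 were also among the 100 of lowest SD on array 2 and 79 in the lower 50% there. The 100 chosen on array 2 had a median SD of 0.398 on array 1, against 0.676 among the others, with 92 in the lower 50%. On the array of choice the medians were 0.360 for array 1 and 0.438 for array 2. The low spread therefore returned in regions that had no part in the choice, in a weaker form for the choice on array 1. Counting error differed between the arrays. It made up a median of 45.3% of the variance of the 100 members of the main choice on array 1 and 89.1% on array 2. Its part in the weaker return was not tested. The arrays carry the same 24 tumours, so the comparison repeats regions and not dogs.

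The second selection used the 68 tumour regions only, and the 12 control regions were then read. It shared 74 members with the selection on all regions. The absolute difference between the tumour mean and the tissue mean had a median of 0.29 log2 units for kidney, 0.28 for spleen and 0.41 for liver in the 100 chosen, against 0.64, 0.55 and 0.74 in the other 905. It exceeded 1 for 5, 0 and 8 of the 100, against 30.5%, 26.0% and 36.4% of the others. With upper quartile scaling, which shared 47 members, 9, 1 and 5 of the 100 exceeded 1, against 25.9%, 19.0% and 19.7%. With library size alone, which shared 28, the counts were 34, 20 and 13, against 31.2%, 32.9% and 19.8%, so that kidney no longer set the chosen probes below the others. Probes steady across tumours were nearer to equality in the 3 tissues than the others under TMM, upper quartile and median-of-ratios scaling, in these 12 regions. With TMM the signed difference, tumours minus tissue, had medians of 0.17, 0.21 and 0.40 in the chosen and 0.44, 0.45 and 0.70 in the others. With upper quartile scaling these were -0.20, -0.02 and 0.01, against 0.07, 0.07 and 0.05. What part the floor has in the contrast was not tested.

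The mean level of the 100 members together depended on the scaling in its direction. With TMM it was 7.60 ± 0.107 in tumours (SD, n = 24), against 7.33 ± 0.0386 in liver, 7.48 ± 0.0158 in spleen and 7.52 ± 0.00679 in kidney (SD, n = 4 each). Of the 24 tumours, 17 lay above every kidney region and 6 below, and all 24 lay above liver. With upper quartile scaling the tumour mean was 7.55 ± 0.107, against 7.89 in liver, 7.79 in spleen and 7.84 in kidney, and all 24 tumours lay below every kidney and every liver region. With library size alone it was 7.56 ± 0.547 in tumours, against 8.19 in liver, 8.52 in spleen and 8.35 in kidney. With median-of-ratios size factors it was 7.58 ± 0.0541 in tumours, against 7.64 in liver, 7.63 in spleen and 7.66 in kidney. No direction can be given for the members as a set between tumours and control tissues.

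**Figure D3:**
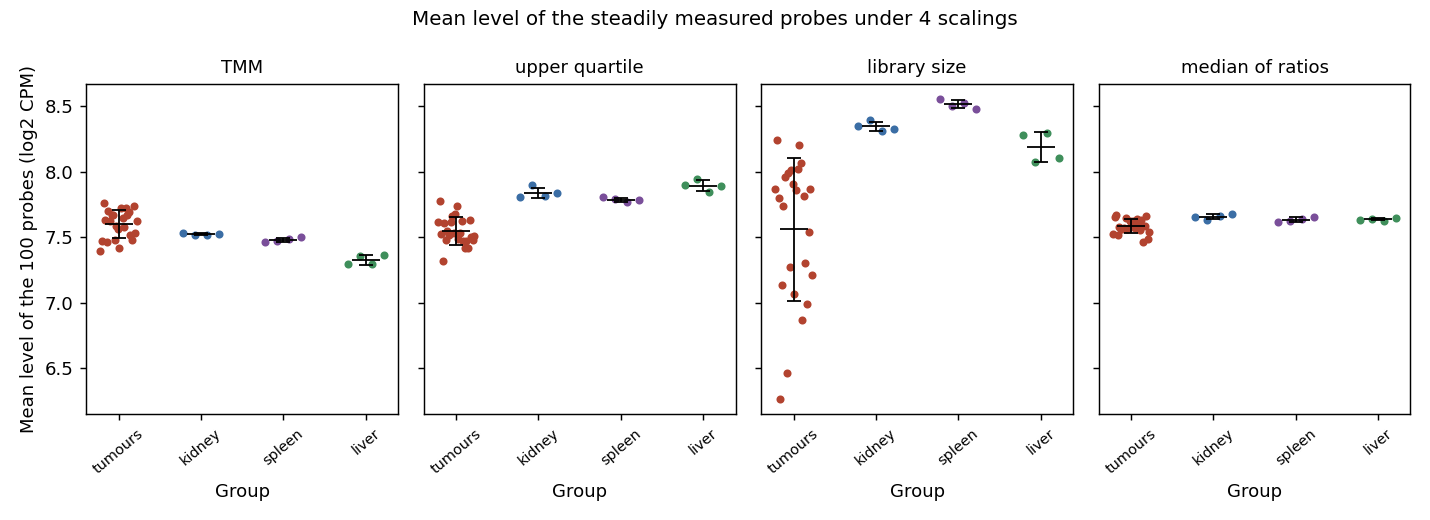
Mean level (log2 CPM) of the 100 members under 4 scalings, for 24 tumours (mean of each tumour's regions) and the 4 regions of kidney, spleen and liver, with the group mean and SD in black. All 24 tumours lie above every liver region with TMM and below every one with upper quartile scaling, 22 lie below every one by library size, and the groups lie closest with median-of-ratios size factors.

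The TMM factors themselves differed between groups. They averaged 1.04 ± 0.355 in tumours, from 0.373 in tumour 404 to 1.75 in tumour 214, against 1.87 in liver, 2.11 in spleen and 1.81 in kidney. The members held 2.09% ± 0.701 of the counts in tumours, against 2.94% in liver, 3.39% in kidney and 3.74% in spleen. Tumour 404 had the smallest share, 0.801%, and tumour 214 the largest, 3.21%.

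The distance of the members above the 503 probes of lowest mean level hardly depends on the scaling. It was 1.31 ± 0.341 log2 units in tumours (SD, n = 24), against 0.312 ± 0.0676 in liver, 0.770 ± 0.0454 in spleen and 0.787 ± 0.0366 in kidney (SD, n = 4 each). Tumour 901 was lowest at 0.736 and tumour 2206 highest at 1.77. All 24 tumours lay above every liver region, and 21 lay above every kidney and every spleen region. It was 1.18 ± 0.386, 1.26 ± 0.379 and 1.498 ± 0.169 (SD, n = 8 each) in the shallowest, the middle and the deepest tumours. Within tumours the order was mixed: the distance was larger in the deepest region of 9 tumours and in the shallowest region of 15. It was 1.30 in tumours with upper quartile scaling, against 0.320 in liver, 0.781 in spleen and 0.798 in kidney. The 503 probes were chosen by their mean over all 80 regions, most of them tumour, and that choice favours probes low in tumours. Their mean level was 6.28 log2 CPM in tumours, against 7.01 in liver, 6.73 in kidney and 6.71 in spleen. What part the choice has in these levels and in the smaller distance in liver was not tested. Over all regions 30 members lay less than 1 log2 unit above the mean of those 503. Negative control probes were not used here, and the part of non-specific signal in these levels was not tested. The probes are accordingly called steadily measured, not steadily expressed.

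**Figure D4:**
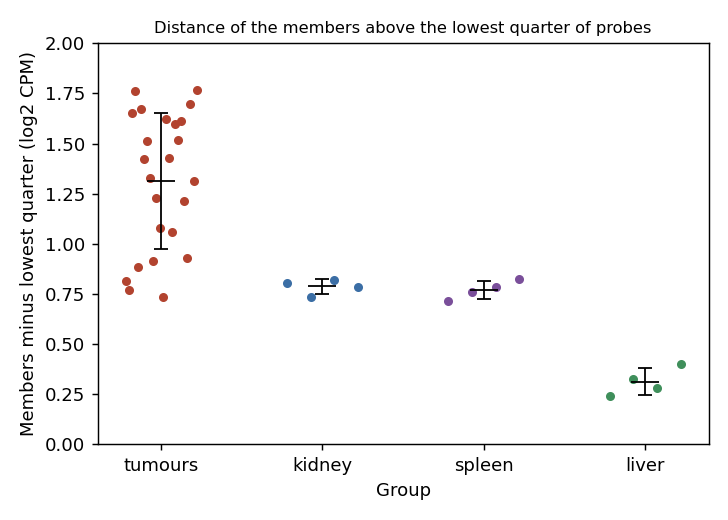
Mean level of the 100 members minus that of the 503 probes of lowest level (log2 CPM, TMM) in 24 tumours and in the 4 regions of kidney, spleen and liver, with the group mean and SD in black. Liver regions lie lowest, at 0.242 to 0.400, and tumours spread from 0.736 to 1.77.

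The ranking of single probes changed more than the overall order. Over the 1005 probes the SDs with TMM and with upper quartile scaling had a Spearman correlation of 0.922. Of the 100 members, 54 stayed among the 100 of lowest SD with upper quartile scaling and 83 stayed within the first 200, and the lowest placed was at rank 375. With median-of-ratios size factors 76 stayed, and with library size alone 21. Inside the 100 under all 4 scalings were 18 members.

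The members with the best mean rank over the 4 scalings were RTS0113047, RTS0112374, RTS0113008, RTS0113005 and RTS0113415. RTS0113047 was at rank 9 with TMM, 3 with upper quartile, 15 with library size and 1 with median-of-ratios factors. Its tumour means ran from 7.16 in tumour 204 through 7.64 to 8.21 in tumour 404. It had 7.85, 7.66, 7.83 and 7.78 in kidney, 7.19, 7.73, 7.49 and 7.46 in spleen, and 7.12, 7.25, 6.90 and 7.46 in liver. Kidney and spleen lay inside the tumour range, and liver lay at its lower end with 2 regions below it. The variance ratio was 1.21, and the probe still differed among tumours (edgeR adjusted p = 5.32e-05). RTS0112374 was at rank 58 with TMM but 2, 6 and 11 with the other scalings. Its tumour means ran from 7.54 through 8.11 to 8.71, against 7.53, 7.65, 7.45 and 7.60 in kidney, which lay at the lower end of the tumours.

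The members that fell furthest with upper quartile scaling were RTS0112646 (rank 64 with TMM, 372 with upper quartile), RTS0113053 (94 and 375) and RTS0112084 (81 and 358). None of the 3 was high, at 7.22 to 7.48 log2 CPM, and their SD grew to between 0.554 and 0.561. The probes that gained most to enter were RTS0113890 (rank 327 with TMM, 97 with upper quartile), RTS0111990 (317 and 91) and RTS0112616 (294 and 70). They were higher in level, at 7.78 to 8.72, and with TMM all 3 had lower means in liver than in tumours. RTS0112616 had 8.76 ± 0.528 in tumours (SD, n = 24), against 7.78 ± 0.145 in liver (SD, n = 4), and RTS0113890 had 7.90 ± 0.417 in tumours, against 6.69 ± 0.387 in kidney.

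**Figure D5:**
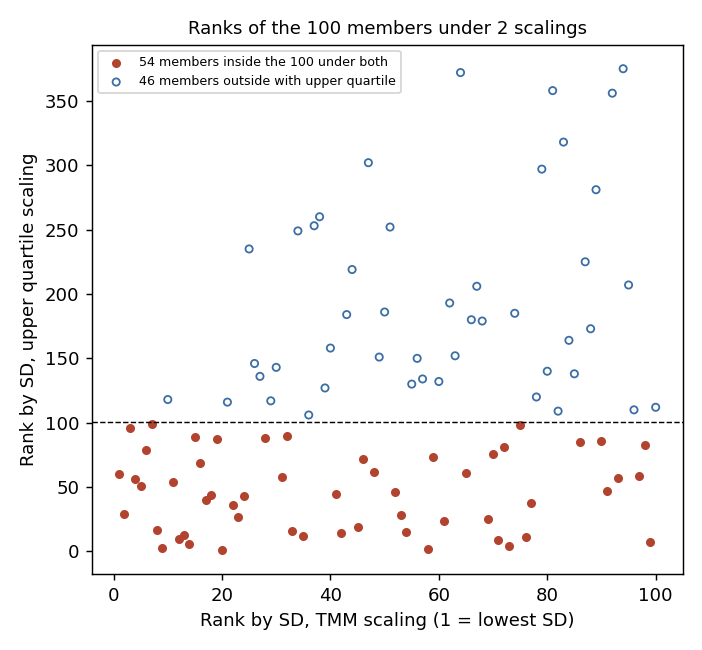
Rank by SD of the 100 members with TMM (horizontal) and with upper quartile scaling (vertical); the dashed line marks the limit of 100. The 54 filled points stayed inside and the 46 open points fell outside, down to rank 375; the first 9 ranks stayed inside, and from rank 10 on points lie on both sides of the line.

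Another ranking used the mean SD of a probe's log2 ratios to the other probes at or above the median level. In such ratios the scaling factor cancels except in the prior count, and TMM set the level floor. This ranking kept 44 of the 100 members, and the measure was chosen after seeing the data. Its first 4 were all members: RTS0112925, RTS0112730, RTS0113047 and RTS0113087, at TMM ranks 20, 99, 9 and 73. These were members of higher level, from 7.67 to 8.88 log2 CPM, against a median of 7.51. RTS0112730, next to last by TMM, was thus second by this measure, and RTS0112919, first by TMM, was at rank 114.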

How the data were processed

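Region-level RNA of canine osteosarcoma and 3 control tissues was measured on 2 arrays. The deposited files hold a count for each probe. Per the file headers, the GeoMx NGS Pipeline (version 2.3.4) made them; the headers record no normalization, and no background was subtracted here.

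The members and gene lists were chosen with earlier results of these data known. log2 CPM used edgeR 4.0.16 in R 4.3.3 with TMM over the 80 regions and a prior count of 2. Counting noise was summed exactly over the Poisson distribution for a probe of constant share. Tests were edgeR's quasi-likelihood tests with filterByExpr and Benjamini-Hochberg adjustment over all probes, threshold 0.05. Tissue tests summed regions per tumour and per tissue, the test among tumours took regions singly with array as covariate, and the array test summed per tumour and array with the tumour as a block, since, per the labels, every tumour number occurs on both. An SE is the absolute log2 fold change over the root of F. DESeq2 1.42.0 was an alternative. The scripts were tested on simulated data.

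Probes were named by rule: the 5 lowest SDs, the 3 highest and 3 lowest levels and variance ratios, the 2 largest fold changes each way per tissue, the 2 smallest p among tumours, the 3 on each side of the limit, the 5 best over 4 scalings, and the 3 leaving and 3 entering furthest with upper quartile scaling. Marker and reference gene lists were not tested, because no probe has a gene name here. The disease-free interval groups are not in the sample labels and were not analysed here.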

Additional observations from a re-analysis of the deposited data

Results flagged for a closer look

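Among 39 sets of 4 regions (the members' mean level and 12 named members in each control tissue), 2 had a region far from the other 3; chance flags about 1 in 20 such sets. RTS0112473 had 8.34 log2 CPM in 1 spleen region, against 8.66, 8.66 and 8.67 in the others, a gap of 0.966 of the range. RTS0112925 had 8.15 in 1 liver region, against 8.41, 8.39 and 8.40 in the others, a gap of 0.929 of the range. Both were among the 3 members of highest level.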

How the results depend on the processing

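Membership changed with most choices. Of the 100 members, the number kept was 54 with upper quartile scaling, 21 with library size alone, 76 with median-of-ratios factors, 64 on array 1 alone, 62 without the 17 tumour regions of lowest total, 66 with regions summed per tumour and tissue, 53 with the median absolute deviation, 65 with no level floor and 14 with the floor at the upper quartile, above which only these 14 members lie, so that this count is fixed by the floor. It was 44 with log2 ratios between probes, and 47 probes were shared by the choices on array 1 and array 2; both were added after seeing the data. Prior counts of 0.5 and 5, array 2 alone, edgeR's dispersion and tumour regions alone kept 72 to 97, and leaving out 1 tumour or 1 control region kept 77 to 99.

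The median SD of the members was 0.740 with library size alone, 0.370 on array 1, 0.376 without the shallow regions and 0.337 with summed regions. The share of their variance due to counting was 19.2%, 45.3% and 41.7% under the first 3 of these, and both stayed within 1 SD under the other alternatives run. The members' mean level in tumours minus kidney, spleen and liver turned to -0.29, -0.24 and -0.35 under upper quartile scaling, -0.79, -0.96 and -0.63 by library size, and -0.074, -0.052 and -0.053 with median-of-ratios factors. Leaving out 1 tumour gave a difference from kidney between -0.048 and 0.085: without any of 10 tumours it was below 0 and TMM took a liver region as its reference, and without any of the other 14 it was 0.070 to 0.085 and the reference was a region of tumour 2203, as in the main setting. The 10 were tumours 404, 501, 610, 702, 901, 1701, 2201, 2202, 2203 and 2206.

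The calls between tumours and tissues stayed at 0 members except for 2 lower in tumours than in kidney and 1 lower than in liver with upper quartile scaling, and 1 higher than in liver with DESeq2. Of all 2010 probes, 126, 332 and 132 were called in these comparisons, in that order. Against kidney RTS0113720 and RTS0112473 turned to -0.021 and -0.068 with library size alone, and against spleen RTS0113087 and RTS0112473 to -0.34 and -0.34. Among tumours 11 members passed on array 1 alone and 3 on array 2 alone, where only 10 tumours enter. Of all probes 728 of 2010 and 631 of 1929 passed there. Under the other alternatives 84 to 100 members passed, and 1570 to 2010 of all 2010 probes. Between arrays 5 members passed, all higher on array 2. Under upper quartile scaling 2 passed and by library size 2, all lower on array 2. With DESeq2 3 were higher and 1 lower. Without the replicate block 0 members passed, where 1 of 2008 tested probes was higher and 0 lower. Counts limit the precision of all member values, and array, tissue piece and preparation cannot be told apart.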
